A study of Mus musculus with 9 samples.

Results

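The cells described here are thymocytes: the 624 cells, of 10186 in all, to which the authors gave the label T2 in a single-cell RNA sequencing study of mouse thyroid. They were chosen by that label alone. Whole samples held 583 to 1805 cells. Thyroids came from male C57BL/6 mice, 10 to 14 weeks old per the labels, 7 days after 1 intraperitoneal injection of antibody. The control group, RW, was given anti-ragweed at 40 mg/kg. Group aJ1aJ2 was given anti-Jag1 and anti-Jag2, which block 2 Notch ligands, at 20 mg/kg each. Group aN1aN2 was given anti-Notch1 at 5 mg/kg and anti-Notch2 at 10 mg/kg, which block 2 Notch receptors. Each of the 9 samples, 3 per group, was a pool of thyroids from 6 mice, so a sample value is a pool value and mice within a pool cannot be told apart.

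Thymocytes are the precursors of T cells. They normally mature in the thymus, passing from a double-negative stage, with neither CD4 nor CD8 on the surface, through a double-positive (DP) stage with both, to single-positive T cells. They assemble the T cell receptor beta chain at the double-negative stage, then divide, and assemble the alpha chain once they are double-positive and resting. Both steps need the recombinase made of Rag1 and Rag2, while Dntt (terminal deoxynucleotidyl transferase) adds bases at the joints. Notch1 is known to commit progenitors to the T cell lineage early in this path. The other label of lymphocytes in the study, T1 (409 cells), is the closest comparison.

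The 5 marker genes of the label were present in most of these cells. Of the 624 cells, 364 (58.3%) held a unique molecular identifier (UMI, 1 counted RNA molecule) of all of Dntt, Rag1, Cd8b1, Cd8a and Arpp21, 165 held 4 of them, 54 held 3, and 5 cells held none. Of the 409 T1 cells none held all 5 and 288 held none. Arpp21 encodes a cAMP-regulated phosphoprotein, and Cd8a and Cd8b1 encode the chains of the CD8 coreceptor. In GENCODE M21 on GRCm38, the build named in the submitters' processing notes, Rag1 (ENSMUSG00000061311) lies on chromosome 2 at 101638282 to 101649501 on the minus strand, next to Rag2 at 101624718 to 101632529. Cd8b1 (71322788 to 71337494) and Cd8a (71373427 to 71379173) are neighbours on the plus strand of chromosome 6. Dntt is on chromosome 19 (41029275 to 41059525, plus strand) and Arpp21 on chromosome 9 (112065091 to 112235938, minus strand).

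Because these genes were high together in T2, the 250 bases before the start of 3 of them are shown, from RefSeq (GRCm38.p6), which held a window for 4 of the 5 markers. Capitals mark each E-box, CANNTG, the sequence that E proteins such as Tcf12 and Tcf3 bind. The motif is its own reverse complement, so a match counts for both strands. The Rag1 window is chr2:101649533-101649782 (minus strand), that of Dntt chr19:41029025-41029274 (plus strand) and that of Cd8a chr6:71373177-71373426 (plus strand).
Rag1: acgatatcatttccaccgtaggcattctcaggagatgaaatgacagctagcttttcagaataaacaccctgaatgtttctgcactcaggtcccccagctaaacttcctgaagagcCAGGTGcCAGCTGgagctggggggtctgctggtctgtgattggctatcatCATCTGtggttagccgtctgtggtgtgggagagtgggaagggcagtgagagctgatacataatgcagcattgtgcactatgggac
Dntt: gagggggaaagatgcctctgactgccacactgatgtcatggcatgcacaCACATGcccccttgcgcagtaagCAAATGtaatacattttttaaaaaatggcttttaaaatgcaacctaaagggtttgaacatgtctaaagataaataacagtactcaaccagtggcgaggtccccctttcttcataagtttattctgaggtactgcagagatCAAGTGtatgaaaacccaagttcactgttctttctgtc
Cd8a: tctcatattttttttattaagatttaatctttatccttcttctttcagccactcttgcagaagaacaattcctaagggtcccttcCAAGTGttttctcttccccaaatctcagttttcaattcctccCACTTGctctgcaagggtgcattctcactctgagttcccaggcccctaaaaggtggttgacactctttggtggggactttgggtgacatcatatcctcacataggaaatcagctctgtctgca
The Rag1 and Dntt windows each held 3 E-boxes and that of Cd8a held 2. Of all 32851 windows of this length, 66.2% held at least 1 E-box and 12.2% held 3 or more, so a match is common and is a description only.

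T2 cells were spread very unevenly over the samples. They made up 0% of RW 1 (0 of 1248 cells), 20.7% of RW 2 (272 of 1317; exact 95% binomial interval 18.5 to 22.9) and 1.33% of RW 3 (14 of 1051). Within the ligand blockade they made up 2.40% of aJ1aJ2 1 (14 of 583), 15.8% of aJ1aJ2 3 (285 of 1805; 14.1 to 17.6) and 2.50% of aJ1aJ2 4 (39 of 1563). RW 2 and aJ1aJ2 3, from different groups, together held 557 cells, 89.3% of all T2 cells. No T2 cell was found in aN1aN2 1, 2 or 3, of 1047, 885 and 687 cells, which allows shares of up to 0.287%, 0.339% and 0.437%. The 0 of RW 1 allows up to 0.240%. These limits (3 cells) and intervals cover counting error only.

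**Figure D1:**
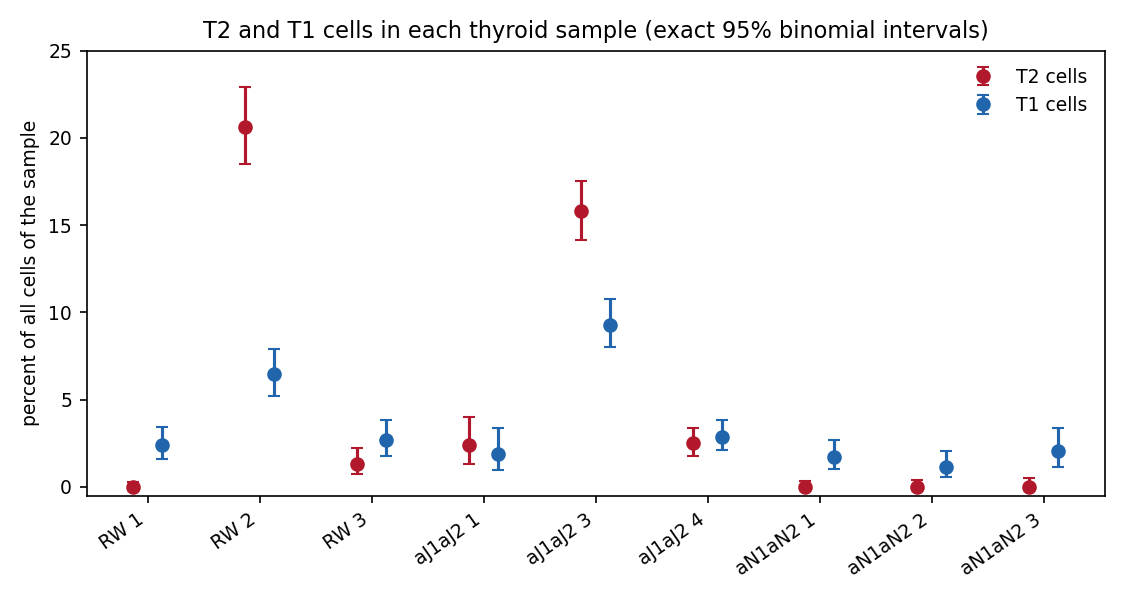
Percent of all cells of each sample (y axis) that carry the label T2 (red) or T1 (blue), with exact 95% binomial intervals. RW 2 and aJ1aJ2 3 stand apart at 20.7% and 15.8% T2, and RW 1 and the 3 aN1aN2 samples are at 0.

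The mean share was 7.33% ± 11.6 (SD, n = 3) in RW, 6.90% ± 7.70 (n = 3) in aJ1aJ2 and 0% (n = 3) in aN1aN2. The spread within RW and within aJ1aJ2 was larger than their means, and the difference of -0.433 percentage points between them was far inside it (exact two-sided permutation p = 1.0). aN1aN2 was 7.33 points below RW (exact p = 0.4), and RW 1 overlapped it at 0%. aN1aN2 lay below aJ1aJ2 in all 3 samples, by 6.90 points (exact p = 0.1, the smallest that 3 against 3 samples allow). Without RW 2 the distance of aN1aN2 from RW was -0.666 points, and without aJ1aJ2 3 its distance from aJ1aJ2 was -2.45. The sample numbers in the titles fall into 3 series. Series A holds RW 3 and aJ1aJ2 1, where aJ1aJ2 was 1.07 points higher. In series B (RW 1 and 2 with aJ1aJ2 3 and 4) the difference was -1.18 points (exact permutation p = 1.0), and series C holds the aN1aN2 samples only, so receptor blockade and that series cannot be told apart.

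T1 was also highest in the same samples, at 85 cells (6.45%) in RW 2 and 168 (9.31%) in aJ1aJ2 3, against 10 to 45 cells (1.13% to 2.88%) in the other samples. T1 cells were present in all 9 samples, including the 4 with no T2 cell. Cells of the label P, all of which held UMIs of the parathyroid hormone gene Pth, numbered 0 of 1317 in RW 2 and 3 of 1805 in aJ1aJ2 3, against 4 to 22 in the other samples. UMIs of the 5 markers in cells that were neither T1 nor T2 were highest in the samples rich in T2, at 17.1 CPM (UMIs per 1000000 UMIs) in RW 2 and 24.9 in aJ1aJ2 3. They were at 3.24 in aJ1aJ2 4 and at most 1.91 in the others, the highest of which, aN1aN2 2, held no T2 cell. Their part in the uneven spread was not tested. Of 30 cells whose barcode occurred in more than 1 library, none was a T2 cell. T2 cells were similarly deep where they occurred, with sample medians from 1968.5 to 2371 UMIs. Their overall median was 1992.5 UMIs (598 to 53491), against 4214 in T1.

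Most T2 cells carried RNA of both coreceptors. UMIs of Cd4 and of Cd8a or Cd8b1 were found together in 404 cells (64.7%, exact 95% interval 60.9 to 68.5), Cd8 UMIs without Cd4 in 204 (32.7%), neither in 16, and Cd4 without Cd8 in none. In T1 both were found in 20 cells (4.89%), although these cells were deeper, and Cd4 alone in 68 (16.6%). In the endothelial label EC1, which should lack both, 1 of 1603 cells (0.0624%, median 3994 UMIs) held both. With each cell thinned to 1000 UMIs, which left out 5 T2 cells, the share with both was 40.1% in T2 and 0.985% in T1, so the split between both and CD8 alone moves with depth.

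Among the DP thymocyte genes, Rag1 had the largest ratio of T2 to T1. In summed UMIs, Rag1 was at 1439 CPM in RW 2, 1209 in RW 3, 1415 in aJ1aJ2 1, 966 in aJ1aJ2 3 and 1072 in aJ1aJ2 4. These sums mix 2 kinds of cell. The cycling cells described below held 43.1%, 19.5%, 24.1%, 62.8% and 46.2% of the T2 UMIs in the same order of samples. Rag1 was at 276 CPM in them and at 2396 in subcluster 1, which holds most T2 cells. In T1 Rag1 was at 12.2 CPM in aJ1aJ2 3 and at 0 in the other 8 samples, so the labels did not overlap. Its partner Rag2 was sparse, with UMIs in 13.9% of T2 cells, at 59.7, 93.0, 0, 52.7 and 15.3 CPM in the same order of samples and at most 1.11 in T1, and so overlapped at 0. Dntt ranged from 728 to 1415 CPM over the 5 T2 samples and from 0 to 124 over the 9 T1 samples. Rag1 UMIs were present in 85.4% of T2, 1.22% of T1 and 0.374% of EC1 cells. Cd8b1, from 1141 to 2638 CPM, and Cd8a, from 735 to 2139, were above every T1 sample, whose highest values were 415 and 263. Themis, which is needed for positive selection, was at 319 to 743 CPM in T2 and at most 67.9 in T1.

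The ratio of T2 to T1 was taken in RW 2, aJ1aJ2 3 and aJ1aJ2 4, which had at least 20 cells of both, as log2 of CPM + 10. It is a description with no test, because the labels come from these genes. Of 4974 genes found in at least 10% of the cells of either label, 324 (6.51%) were over 2-fold higher in T2 in all 3 samples and 245 (4.93%) in T1. Of the 12 DP genes 11 were higher in T2 by that measure, with a list median of 2.56 beside 0.26 over all genes. The largest ratios belonged to Rag1 (6.46, 5.46 to 7.18 over the samples), Dntt (5.20), Endou (4.98), Arpp21 (4.80), Myb (4.23), Ly6d (4.14) and Dgkeos (4.06). Myb is a transcription factor of immature blood cells. Dgkeos is named as antisense to Dgke, and reads of the pair may not be told apart. Further down were Ube2c, Aqp11, Gm37065, Rmnd5a, Pclaf, Nebl, Cdca7 and Birc5, of which Ube2c, Pclaf and Birc5 are genes of dividing cells. These 3 were high in the cycling T2 cells described below and at 5.10, 2.04 and 3.06 CPM in subcluster 1, which holds most T2 cells, against 13.3, 56.0 and 21.1 in T1.

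Most genes of the mature single-positive list were lower in T2 than in T1. All 8 genes of the mature single-positive list were measured and 7 were over 2-fold higher in T1, beside 4.93% of all genes. The list median was -2.96 beside 0.26 over all genes. Il7r, the interleukin 7 receptor, was at 0 CPM in 3 T2 samples and at most 15.3 in the others, against 326 to 1775 in T1. S1pr1, the receptor by which mature thymocytes leave the thymus, was at 15.3 CPM in aJ1aJ2 4 (2 UMIs) and at 0 in the other 4 T2 samples. In T1 it was at 0 to 148 CPM, so the ranges overlapped. The most extreme ratios on this side were those of S100a4 (-6.19), the chemokine Ccl5 (-6.15), S100a6 (-5.53), Ms4a4b (-4.83), Il7r (-4.80) and Nkg7 (-4.77), followed by Gimap3, Gimap4, Ifi27l2a, Cd53, Cxcr6, Cd163l1, H2-K1, Klrd1 and Ctsw. Cxcr6 and Klrd1 had no UMI in T2. The order is that of 1 offset: with CPM + 1, 10 of the 15 genes named for T2 and 8 of the 15 named for T1 were again among the first 15.

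**Figure D2:**
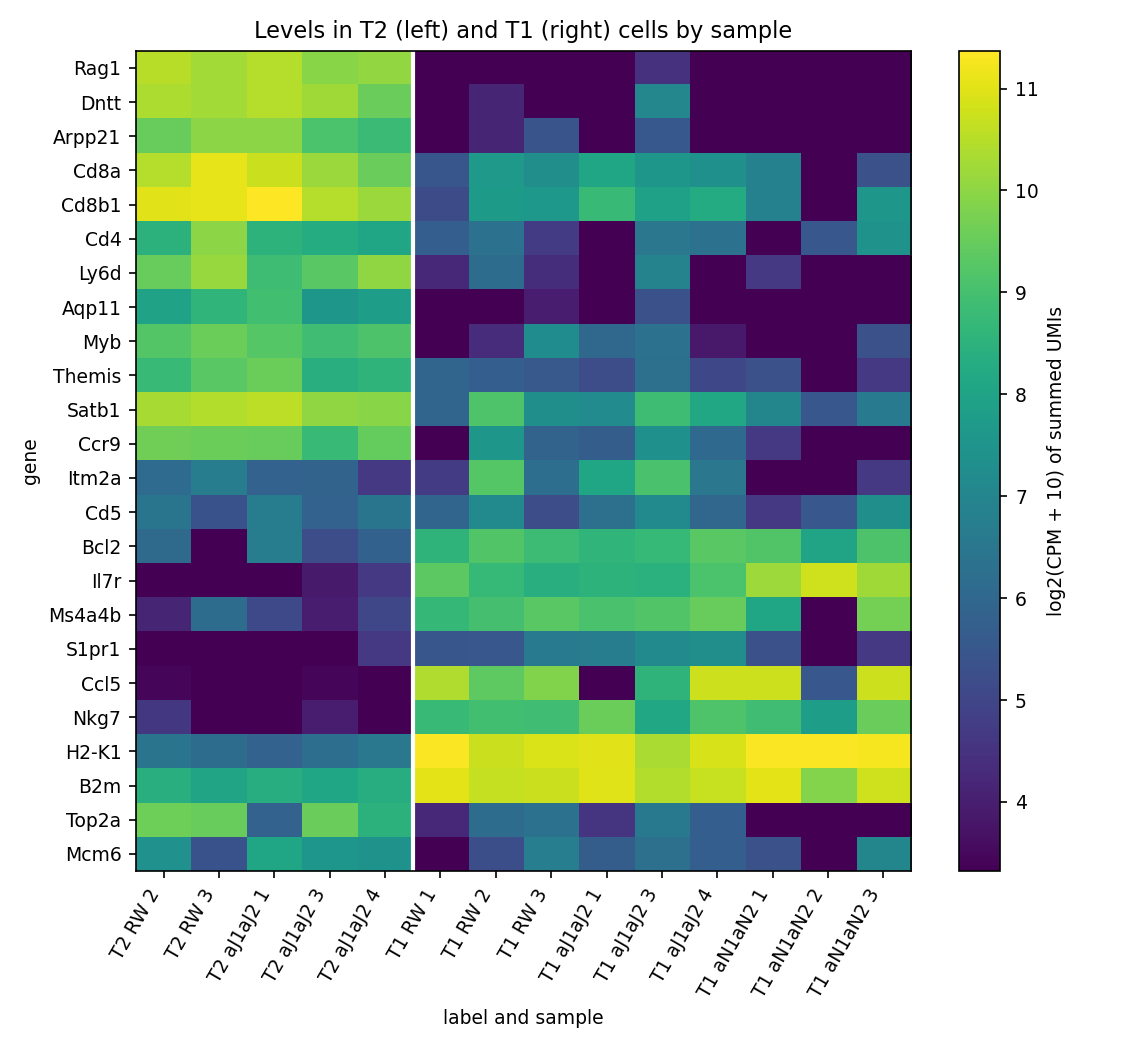
Levels of selected genes (rows) in summed T2 cells of 5 samples and summed T1 cells of 9 samples (columns), as log2(CPM + 10) on a colour scale. Rag1, Dntt, Arpp21 and Aqp11 are high in every T2 sample, and Il7r, Nkg7, H2-K1 and B2m are high in every T1 sample.

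The antigen-presenting molecules that nearly all mature cells carry were low in T2. H2-K1, a heavy chain of MHC class I, was at 75.5, 62.0, 48.0, 65.7 and 84.3 CPM in the T2 samples in the order RW 2, RW 3, aJ1aJ2 1, 3 and 4, and at 1282 to 2558 in T1. B2m, its light chain, was at 248 to 323 CPM in T2 and at 923 to 2103 in T1, and H2-D1 at 146 to 264 against 1326 to 3101. The groups did not overlap for any of the 3 genes. The peptide loading genes Tap1 and Tapbp were not over 2-fold apart in every sample.

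Genes of the T cell receptor complex and its signalling lay on both sides. Of the 19 in at least 10% of cells, 3 were over 2-fold higher in T2 and 2 in T1 in all 3 samples, beside 6.51% and 4.93% of all genes, and the list median was 0.06 beside 0.26. Cd3e was at 543 to 1023 CPM in T2 and 445 to 1277 in T1, so the ranges overlapped. The constant region of the beta chain gave more UMIs in T2, with Trbc2 at 4075 to 9019 CPM against 406 to 2213. Trbc1 and Trbc2 are near-identical copies between which reads can be misassigned. Lck, the kinase bound to the coreceptors, was at 414 to 1463 CPM in T2 and at most 380 in T1. Ptcra, which encodes the surrogate alpha chain of the pre-T cell receptor, was low in T2, with UMIs in 9.13% of cells against 1.22% of T1 cells.

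Among the factors that build or repair the recombined joints, Xrcc6 (Ku70) was at 253 to 324 CPM in T2 and at most 71.0 in T1. Dclre1c (Artemis), which opens the hairpin ends, was at 35.7 to 186 CPM against at most 71.0, and so overlapped. Of the 9 V(D)J recombination genes in at least 10% of cells, 7 were over 2-fold higher in T2 and none in T1. These counts stand beside 6.51% and 4.93% of all genes. Rag1 and Dntt, which are markers of the label, are among those higher in T2. Hmgb1 and Hmgb2, cofactors of the recombinase, are also part of that count. Hmgb2 is also a gene of dividing cells and was high only in the cycling T2 cells described below, at 5470 CPM. In the other T2 subclusters it was at 180 and 124 CPM, below the 445 of T1, and it was found in 36.1% of T2 and 57.7% of T1 cells.

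The transcription factors fell to both sides. Satb1, a chromatin organiser of thymocytes, was at 980 to 1511 CPM in T2 and at most 563 in T1. Id2, an inhibitor of E proteins, went the other way, at 0 to 15.3 CPM in T2 and 94.6 to 497 in T1. Runx3, a CD8 lineage factor, was at 6.76 to 31.0 CPM in T2 and 108 to 267 in T1. Zbtb7b, which directs cells to the CD4 lineage, had no UMI in T2. Among the survival genes, Bcl2l1 (Bcl-xL) was at 48.0 to 124 CPM in T2 and 0 to 51.5 in T1, while Bcl2 was at 0 to 95.9 against 249 to 626.

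Genes of the Notch pathway, the target of the antibodies, were sparse in T2. Notch1 was at 46.2 CPM in RW 2, 31.0 in RW 3, 48.0 in aJ1aJ2 1, 38.9 in aJ1aJ2 3 and 61.3 in aJ1aJ2 4. Its targets Hes1 and Dtx1 were found in 1.92% and 1.28% of T2 cells and Nrarp in 0.641%, all in RW 2 or aJ1aJ2 3. Over all samples Hes1 had UMIs in 50.5% of the deeper EC1 cells. With cells thinned to 1000 UMIs, Hes1 was found in 19.4% of EC1, 1.97% of T1 and 0.323% of T2 cells. In all T1 cells, which were also deeper than T2, Hes1, Dtx1 and Nrarp were found in 4.89%, 5.38% and 2.69%. These targets were thus sparse in both lymphocyte labels, with somewhat higher shares in T1. None of the 15 pathway genes passed the filter on low counts for the test between groups. The effect of receptor blockade on these genes in T2 could not be measured, since aN1aN2 held no T2 cell.

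Clustering of the T2 cells alone gave 3 subclusters. Subcluster 1 held 484 cells (77.6%, median 1872.5 UMIs), was led by Gm38405, Gm44175, Spo11, Rag1, Mxd4, Arl5c, Slc6a19, Cd52, Nhsl1 and Gm15340, and is called DP thymocyte-like because the DP list was highest in it. That list gave 129.9 UMIs per 10000 in subcluster 1, 42.5 in subcluster 2 and 58.6 in subcluster 3, with UMIs of all 12 genes in each. Subcluster 2 held 87 cells (13.9%) and was led by Top2a, Pclaf, Nusap1, Birc5, Rrm2, Ube2c, Tuba1b, Mki67, Tyms and Cdk1, genes of DNA replication and mitosis. Subcluster 3 held 53 cells (8.49%, median 2025 UMIs) and was led by Cd5, Itm2a, Hivep3, Bcl2, Cd53, A430093F15Rik, Tox, Phxr4, Arap2 and 4930417O13Rik. Cd5, Itm2a and Tox are markers of thymocytes under selection, and the selection list was at 24.3 UMIs per 10000 against 2.81 in subcluster 1, so it is called selecting thymocyte-like. The thyrocyte list was also highest in subcluster 3, at 30.1 UMIs per 10000 against 12.6 in subcluster 1 and 2.56 in subcluster 2 over all samples. Its main gene, Tg (thyroglobulin), did not keep this order in both larger samples, and was at 2534 CPM in subcluster 3 and 864 in subcluster 1 of RW 2, and at 1237 and 1407 in those of aJ1aJ2 3. The part of thyrocyte RNA in this grouping was not tested. The leading genes define the subclusters and are no test.

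RW 2 and aJ1aJ2 3 hold most T2 cells and were set side by side. In subcluster 3 Rag1 was at 168 CPM in RW 2 and 183 in aJ1aJ2 3, against 2593 and 2296 in subcluster 1. Mxd4, an antagonist of Myc in resting cells, was at 695, 65.4 and 242 CPM in subclusters 1, 2 and 3 of RW 2 and at 611, 55.5 and 275 in those of aJ1aJ2 3. Cd5, which tunes receptor signalling, was at 689 CPM in subcluster 3 of RW 2 and 664 in that of aJ1aJ2 3. The other subclusters were far lower and differed in order, with 24.4 CPM in subcluster 1 and 54.9 in subcluster 2 of RW 2, and 57.7 and 7.75 in those of aJ1aJ2 3. Ccr9, a homing receptor of DP cells, was at 1106 CPM in subcluster 1, 106 in the cycling cells and 1315 in subcluster 3. Cd69, an early activation gene, had no UMI in subcluster 3 and Egr2 had none in any T2 cell. Subcluster 3 made up 8.82% of T2 in RW 2, 7.37% in aJ1aJ2 3 and 15.4% in aJ1aJ2 4, and 0 of 14 and 2 of 14 cells in RW 3 and aJ1aJ2 1.

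**Figure D3:**
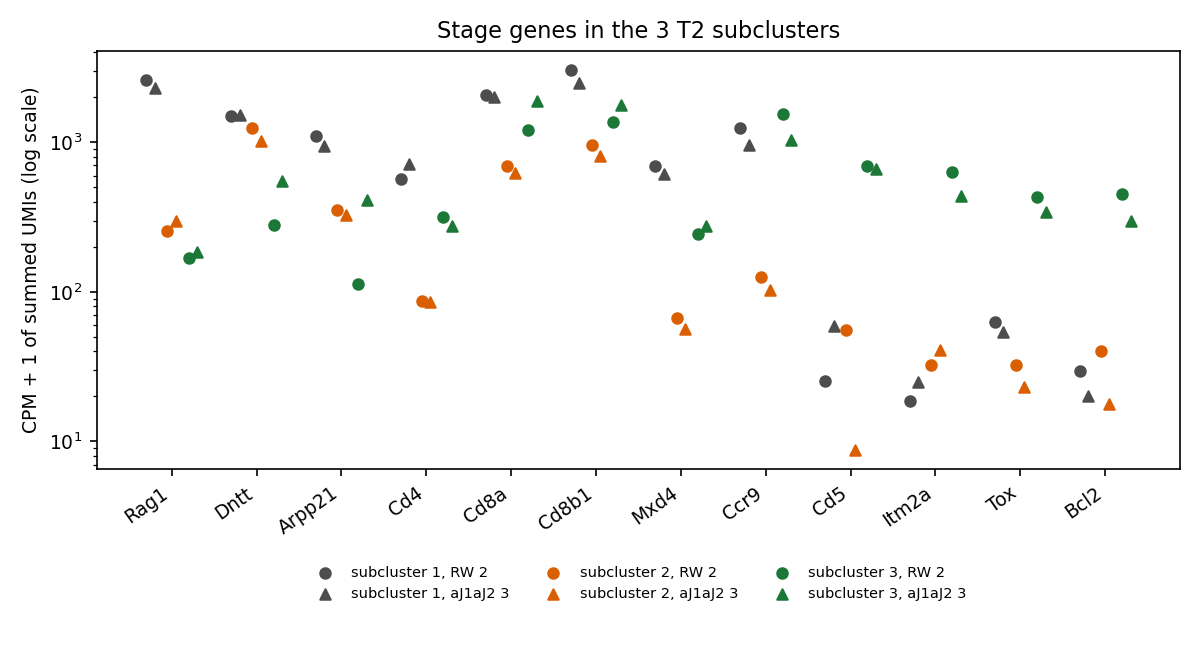
CPM + 1 on a log axis for 12 genes in the 3 T2 subclusters, in RW 2 (circles) and aJ1aJ2 3 (triangles). In both samples Rag1 is above 2000 CPM in subcluster 1 only, and Cd5, Itm2a, Tox and Bcl2 are highest in subcluster 3.

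The cycling cells held far more RNA than the rest. Their median was 9793 UMIs (861 to 53491) and 2799 genes, and these 87 cells supplied 53.0% of all T2 UMIs. Whether some of these barcodes hold 2 cells was not tested. Genes of the S phase and G2/M phase lists made up 161 of 10000 UMIs in them, 10.0 in subcluster 1 and 7.37 in subcluster 3. By sample they were 26 of 272 T2 cells in RW 2 (9.56%), 53 of 285 in aJ1aJ2 3 (18.6%), 6 of 39 in aJ1aJ2 4 (15.4%) and 1 of 14 in each of RW 3 and aJ1aJ2 1.

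**Figure D4:**
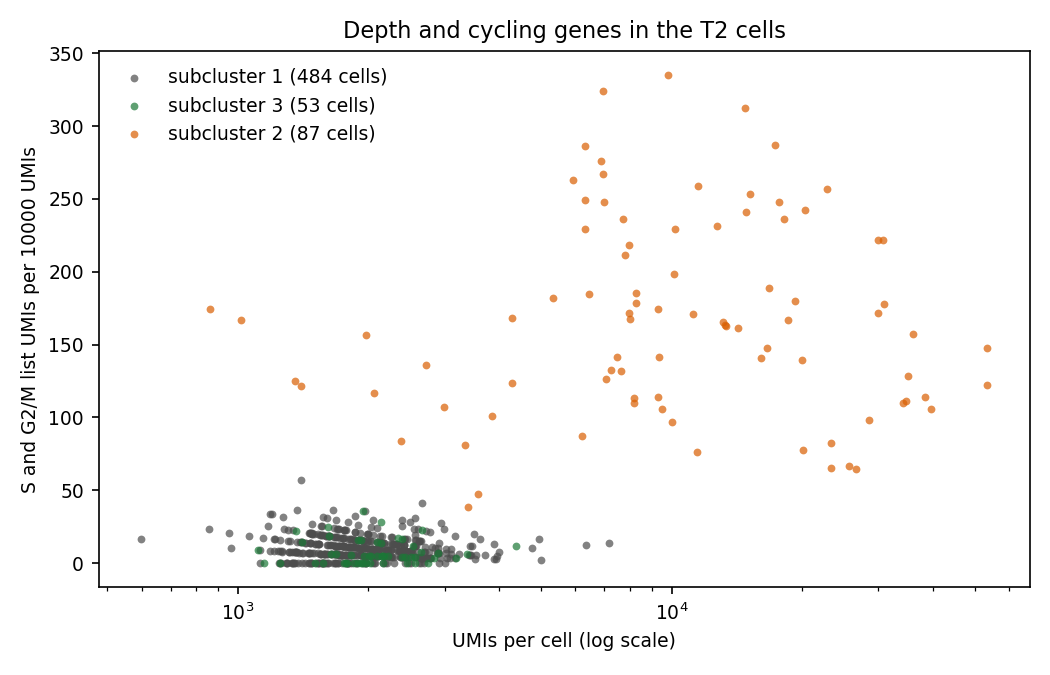
Each point is a T2 cell, with its UMIs on a log x axis and the UMIs of the S and G2/M lists per 10000 on the y axis, coloured by subcluster. Most cells of subcluster 2 lie at higher UMI counts than the rest, and subclusters 1 and 3 lie below 60 cycling UMIs per 10000.

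Cycling cells were also counted by the G2/M list, without the clustering. It is no independent check, since Top2a, Nusap1, Birc5, Ube2c, Mki67 and Cdk1 of that list also lead subcluster 2. With cells thinned to 1000 UMIs, 70 of 619 T2 cells (11.3%, exact 95% interval 8.92 to 14.1) held at least 3 UMIs of the G2/M list, against 9 of 406 T1 cells (2.22%, 1.02 to 4.17) and 0 of 1602 EC1 cells. The share was 8.55% in RW 2 (23 of 269), 14.5% in aJ1aJ2 3 (41 of 283) and 12.8% in aJ1aJ2 4 (5 of 39). It was 1 of 14 cells in RW 3 and 0 of 14 in aJ1aJ2 1. The threshold sets the figure: 46 cells held 2 or 3 UMIs, 17.8% held at least 2, and without thinning 19.4% held at least 3.

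Per 10000 UMIs of summed T2 cells, S and G2/M genes gave 87.7 in RW 2, 58.0 in RW 3, 32.6 in aJ1aJ2 1, 97.5 in aJ1aJ2 3 and 60.9 in aJ1aJ2 4. The groups overlapped, at 72.8 ± 21.0 (SD, n = 2) in RW and 63.7 ± 32.6 (n = 3) in aJ1aJ2, a difference of -9.15 (exact two-sided permutation p = 1.0; the smallest possible is 0.2). Every T2 sample was above its own T1 cells, which gave 8.29 to 24.3. RW 3 and aJ1aJ2 1 rest on 14 T2 cells each, and largely on 1 deep cycling cell each. That cell held 22 S and 135 G2/M UMIs of 6302 in RW 3, and 85 and 12 of 10041 in aJ1aJ2 1. No other T2 cell of these samples held over 6 UMIs of either list. The levels without that cell were not compared with T1, whose highest value, 24.3, was that of RW 3.

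The cycling cells were not uniform. Split by UMIs into 3 depth classes of 29 cells each, Rag1 was at 742 CPM in the shallowest (861 to 7505 UMIs), 508 in the middle (7649 to 15153) and 110 in the deepest (16037 to 53491). Cd4 was at 349 and 161 CPM in the shallowest and the middle class, and in the deepest at 18.3 in RW 2 and 14.4 in aJ1aJ2 3, and Cd8b1 at 1758, 1582 and 399. Dntt was less graded, at 1409, 1565 and 824 CPM. The classes were set after the values were seen, and no test was made. In RW 2 and in aJ1aJ2 3 taken alone, Rag1, Cd4, Cd8a and Cd8b1 were each lowest in the deepest class. Other RNAs were highest there: Npm1, a nucleolar protein of growing cells, was at 1038, 1190 and 3494 CPM, and Il2ra, a gene of the double-negative stage, at 0, 0 and 52.7. Il2ra UMIs were found in only 5.75% of all cycling cells, so few cells carry that value, and Il2ra was at 93.4 CPM in T1. Ptcra was at 37.9, 59.3 and 41.4 CPM over all cycling cells. It was at 0, 85.0 and 18.3 in those of RW 2 and at 49.8, 47.8 and 53.5 in those of aJ1aJ2 3.

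**Figure D5:**
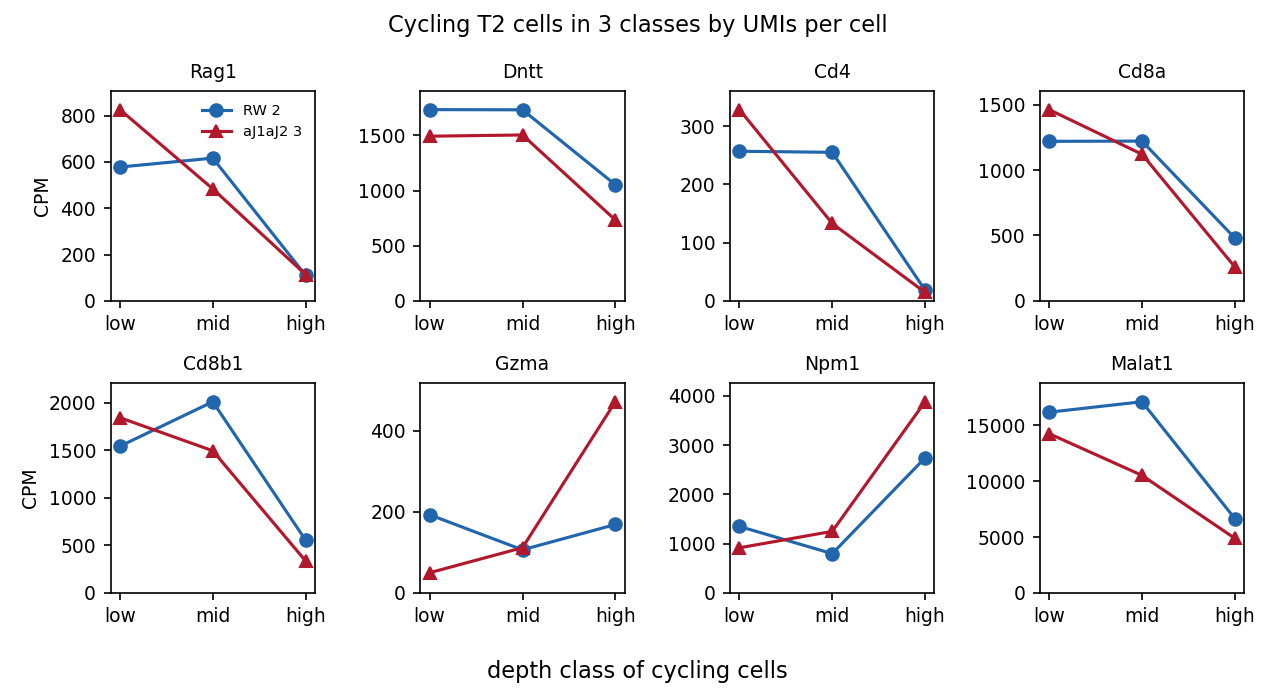
CPM of 8 genes in the cycling T2 cells, split into 3 equal classes (low, middle, high) by UMIs per cell, in RW 2 (blue circles) and aJ1aJ2 3 (red triangles). Rag1, Cd4, Cd8a, Cd8b1 and Malat1 are lowest and Npm1 highest in the deepest class of both samples, while Gzma is highest there in aJ1aJ2 3 only.

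Gene expression within T2 was compared between aJ1aJ2 (samples 1, 3 and 4) and RW (samples 2 and 3), the samples with at least 10 T2 cells. Sums over all T2 cells were used, so cycling and other cells were mixed in shares that differ between samples. Of 2356 genes tested, 2 (0.0849%) passed an adjusted p under 0.05 in the edgeR quasi-likelihood test (Benjamini-Hochberg), both lower in aJ1aJ2, and none was higher. At an unadjusted p under 0.05 there were 40 genes, and DESeq2 called none (15 at the unadjusted level). No member of the DP list was called among the 11 tested, nor of the 18 S phase and 22 G2/M phase genes tested. The list medians were -0.26, 0.40 and -0.27 on the log2 scale, beside 0.01 over all genes. Rag1, at 1559 ± 252 CPM (SD, n = 2) in RW and 1408 ± 239 (n = 3) in aJ1aJ2 on the normalized scale of the fit, changed by -0.19 (SE 0.30, edgeR adjusted p 0.997). Cd4, at 776 ± 505 against 378 ± 50.9, changed by -0.83 (SE 0.39, edgeR adjusted p 0.997).

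The 2 genes were haemoglobin chains, made by erythroid cells. On the normalized scale of the fit, Hbb-bs was at 4024 and 390 CPM in RW 2 and RW 3, and at 142, 224 and 286 in aJ1aJ2 1, 3 and 4. Its log2 change was -3.39 (SE 0.51, edgeR adjusted p 0.00105). Hba-a1 was at 1579 and 70.8 against 114, 49.9 and 76.3 CPM on that scale, a log2 change of -4.02 (SE 0.59, edgeR adjusted p 0.00105). Its groups overlapped, and it is named after its values were seen. Both have near-identical copies, Hbb-bt and Hba-a2, that can share reads. In RW 2, 5 cells with at least 20 erythroid UMIs each held 4590 of the 5475 erythroid UMIs of all T2 cells, 2750 of them in 1 cell. Without those cells the log2 change of Hbb-bs was -0.78 (edgeR adjusted p 0.998) and no gene was called.

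RNA of other cell types was also present. UMIs of Tg were found in 74.0% of T2, 83.4% of T1 and, with cells thinned to 1000 UMIs, in 49.6% of T2, 35.5% of T1 and 46.3% of EC1 cells. Per 10000 UMIs, the thyrocyte list gave 4.08 to 9.92 in 4 samples and 27.7 in aJ1aJ2 4, and 10 T2 cells held at least 20 thyrocyte UMIs. The myeloid list gave at most 0.689 and the endothelial list at most 2.17. Of the thymic epithelium list, Foxn1, Psmb11, Prss16, Krt5, Aire and Dll4 had no UMI in T2 cells, and Ccl25, Epcam and Krt8 were found in 1.12%, 3.69% and 0.641% of them. The NK cell list gave 0.48 to 2.91, nearly all from Gzma (granzyme A), which had 394 UMIs in 13.6% of T2 cells. It was at 77.8, 93.0, 48.0, 230 and 276 CPM in T2 of RW 2, RW 3 and aJ1aJ2 1, 3 and 4, and at 48.4, 266, 13.8, 89.0 and 439 in T1 of the same samples, so neither label was higher throughout. In T2, 11 cycling cells held 247 of these UMIs. The other members were sparse: Nkg7, Prf1 and Tyrobp had 20, 6 and 3 UMIs, and Ncr1, Klrb1c, Klrk1, Eomes and Klre1 had none.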

How the data were processed

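The authors deposited raw UMI counts per gene and cell for all 9 samples in 1 table, with an annotation table that gives each cell's sample and label. Per the submitters' processing notes, Cell Ranger and GRCm38 were used; versions are not given in the sources used here. Libraries were 10x Genomics 3' v2, per the labels' protocols. All cells held at least 500 UMIs, and sample totals ran from 3013324 to 11880793 UMIs. No column belonged to another series. An unquoted comma in 2619 annotation lines was repaired. Symbols matched 52403 of 52636 identifiers. No doublet caller was run, and whether doublets were removed is not given in the sources used here.

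Counts were summed per sample and label. CPM are counts per 1000000 UMIs of such a sum. T2 sums of samples with at least 10 T2 cells entered edgeR 4.0.16 (filterByExpr, TMM, quasi-likelihood test) in R 4.3.3, which was tested on simulated data; DESeq2 1.42.0 was an alternative. Shares and levels were compared with exact permutation tests. Subclusters came from 1500 variable genes, 15 principal components, 15 neighbours and Leiden (leidenalg 0.10.2) at resolution 0.6. RW 3 and aJ1aJ2 1 have no replicate number in their titles. P-values measure the spread between pools of mice.

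The members, the gene lists and the tests were chosen with earlier results of these data known. Genes named are the 5 markers, genes of the lists, the 15 with the largest ratios of T2 to T1 and of T1 to T2, the 10 leading each subcluster, and called genes whose groups did not overlap. Npm1 and Malat1, shown for the depth classes of the cycling cells, were named outside this rule. Lists for T regulatory, B, parathyroid, fibroblast, gamma delta, glucocorticoid and dissociation genes were described too.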

Additional observations from a re-analysis of the deposited data

How the results depend on the processing

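All T2 shares were sensitive to single samples. The difference between aJ1aJ2 and RW ranged from -4.88 to 6.23 percentage points with 1 sample left out (the highest without RW 2), and was 18.6 as a share of T1 and T2 cells (exact permutation p = 0.6) and 1.07 within series A. aN1aN2 stayed below RW (from -11.0 when RW 1 was dropped to -0.666 when RW 2 was) and below aJ1aJ2 (from -9.14 when aJ1aJ2 1 was dropped to -2.45 when aJ1aJ2 3 was). As a replicate block over numbers 1 and 2, which only RW and aN1aN2 share in the titles, the difference was -10.3. No paired analysis was possible because RW and aJ1aJ2 share no replicate number in the titles, for genes and cycling levels; the series of title numbers gave a block of another kind. With the series as a term 3 genes were called, and the cycling level difference was -25.3 within series A and -8.49 within series B. The cycling level difference ranged from -26.1 to 6.39 with 1 sample left out, and was 11.8 for S phase genes alone and 0.0992 as a mean over cells. The share of cells with cycling UMIs was 19.4% without thinning, 16.5% at 1500 UMIs and 17.8% for at least 2 UMIs. With CPM + 1, 18 of the 30 genes named between T2 and T1 were kept. At resolution 1.0 there were 5 subclusters, in which 86 of the 87 cycling cells, all 53 of subcluster 3 and 257 of the 484 of subcluster 1 stayed together; at resolution 0.3 these were 86, 39 and 484.

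Against 2 genes called between aJ1aJ2 and RW, DESeq2 called 0, no filter on low counts 5, and a minimum of 20 T2 cells, with RW 2 as the only RW sample and assumed to vary like the others, 7. Leaving out 1 sample gave 0 to 6: 1 gene when RW 2 was dropped, 6 genes when RW 3 was, 4 genes when aJ1aJ2 1 was, and 0 when aJ1aJ2 3 or 4 was; the first 2 of these counts also rest on a lone RW sample under the same assumption. Alternatives added after the values were seen gave 1 without the cycling cells, 0 without the cells rich in erythroid UMIs and 3 with the series term, where 110 genes had an unadjusted p under 0.05 against 40. Beyond the lost cells and samples of each alternative, the cause was not tested. RW 3 and aJ1aJ2 1, with 14 T2 cells each, limit what can be detected.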

Other observations

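T1 cells of RW 2 and aJ1aJ2 3, the samples rich in T2, were higher than T1 cells elsewhere in Itm2a, Satb1, Ccr9 and Sox4, which were picked after their values were seen, with no test. Other genes of immature thymocytes did not follow: Myb was at 10.2 and 71.2 CPM in T1 of these samples against 141 in RW 3, and Tox at 143 and 99.0 against 255 in aN1aN2 1. Itm2a was at 593 CPM in T1 of RW 2 and 523 in aJ1aJ2 3, 263 in aJ1aJ2 1 and 0 to 81.2 in the other 6 samples. Satb1 was at 563 and 461 CPM against 35.5 to 267 in the others, and Ccr9 at 183 and 155 against 0 to 57.3. Sox4, at 89.1 and 164 CPM, was at most 41.5 elsewhere. Of the recombination genes, Dntt had T1 UMIs in these samples only, 3 in RW 2 (7.64 CPM) and 111 in aJ1aJ2 3 (124 CPM), and all 11 Rag1 UMIs of T1 were in aJ1aJ2 3 (12.2 CPM). Itm2a was lower in T2 than in T1 of these samples, at 60.9 and 48.6 CPM. The 10 T1 cells with at least 3 of the 5 T2 markers were 2 in RW 2 and 8 in aJ1aJ2 3, and the share of these levels that lies in them was not tested.

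Gzma had UMIs in 47.1% of the cycling T2 cells, which were deeper than the rest. Of the gamma delta list, Trdc had UMIs in 73.6% of them and Tcrg-C1 in 17.2%. Other cytotoxic genes were sparse: Prf1 was at 0 CPM and Nkg7 at 16.2 in the cycling subcluster. Gzma, which encodes granzyme A, reached 10 UMIs or more in 11 T2 cells, all in the cycling subcluster and 9 of them in aJ1aJ2 3. These cells held 247 of the 394 Gzma UMIs of T2. From the shallowest to the deepest class of cycling cells Gzma was at 60.6, 109 and 367 CPM. The rise was that of aJ1aJ2 3, at 49.8, 112 and 472 CPM, while RW 2 was at 193, 106 and 169. Trdc, the delta chain constant region, was at 303 CPM in the cycling cells, 53.1 in subcluster 1 and 8.88 in subcluster 3, and at 684 in T1. Tcrg-C1, which has near-identical copies, was at 83.5, 6.12 and 0 CPM in the same order. Cd163l1 and Blk, other gamma delta genes, were each at 0.430 CPM in T2, against 207 and 63.9 in T1.

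The list of genes induced by tissue dissociation gave 0.31 to 3.12 UMIs per 10000 in T2 samples and 2.71 to 13.0 in T1 samples, which overlapped; in each of the 5 samples with both labels T2 was lower. The glucocorticoid response list gave 2.45 over T2 and 3.71 over T1. Its members Fkbp5 and Tsc22d3 overlapped between the labels, at 31.0 to 161 CPM in T2 and 23.9 to 213 in T1, and at 31.0 to 360 and 147 to 632. The lists for regulatory T cells, B cells, parathyroid cells and fibroblasts gave 0.576, 2.32, 0.374 and 0.146 UMIs per 10000 in T2, against 2.60, 4.52, 0.806 and 0.103 in T1.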
